A study of Mus musculus with 19 samples.

Results

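In 9 libraries of cervical spinal cord from symptomatic ALS mice with the *hSOD1* G93A transgene, extrachromosomal circular DNA (eccDNA) was found on 7426 of the 8336 genes of the deposited table, and the genes were grouped by the number of ALS libraries, from 1 to 9, in which they had a value above 0. The remaining 910 genes were at 0 in all 9 libraries. The table does not hold every mouse gene, since of 29 known ALS genes looked up below only 9 have a row. The animals were males of B6.Cg-Tg(SOD1*G93A)1Gur/J, a line in which a mutant human *SOD1* transgene is overexpressed constitutively and the mouse gene is kept. They had reached a motor severity score of 1 or 2 at an age of 18 to 21 weeks, and animals without timely symptoms had been left out of the study, so that the libraries stand for symptomatic mice alone. Each library came from 1 animal, 400 ng of genomic DNA, digestion of linear DNA with exonuclease V for 7 days and rolling circle amplification (RCA) for 48 h. The 10 control libraries of the series were not used here, and nothing below says whether a gene differs in ALS. Every cell carries every gene, so that expression markers do not check the tissue of a DNA library, and the human transgene is no row of this table of mouse genes.

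EccDNAs are circles that have left the chromosomes and arise from all parts of the genome, among others when broken DNA ends are joined. Very long genes take long to copy and to transcribe, and many of them span the fragile sites at which chromosomes break under replication stress. In the nervous system, long genes are often genes for cell adhesion, synapses and ion channels. A circle is recognized by split reads, which run across its junction. The produced per gene eccDNA value (PpGC) adds up the split reads of all circles that overlap a gene and scales this sum up by the ratio of the longest gene's length to the gene's own. It is given as log2(PpGC + 1), a level per gene length, and it is not scaled between libraries. Undoing the length scaling gave back the split reads themselves for 7128 of the 7426 genes. A gene is called present where its value is above 0 and recurrent where it was present in at least 5 of the 9 libraries.

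The libraries held between 694 genes (ALS 6) and 2204 genes (ALS 3), with a median of 1114. The recovered split reads on genes, summed over genes so that a circle on several genes counts for each, ranged from 73185 (ALS 2) to 389825 (ALS 9). Their median was 175374, and they did not follow the number of genes. Over the 9 libraries Pearson's r was -0.27 (exact permutation p = 0.481) and Spearman's rho was -0.15 (exact permutation p = 0.708), both 0.708 after Benjamini-Hochberg adjustment over these 2 relations. Without ALS 5 and ALS 9, the libraries farthest from the median of the split reads, r was -0.15 (exact permutation p = 0.750). The sequencing depth of the single libraries is unknown, since the methods give only an average over libraries, and split reads after RCA are copies that are not independent molecules. A gene at 0 in a library therefore means only that the table gives no circle with at least 2 split reads there.

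The libraries covered some chromosomes unevenly. Chromosome 1 carried between 1.60% (ALS 2) and 13.8% (ALS 4) of a library's placed genes, chromosome 11 between 1.02% (ALS 5) and 8.17% (ALS 9), and chromosome 13 between 0.442% (ALS 4) and 6.21% (ALS 6). Chromosomes 2 to 7 each differed between libraries by a factor of at most 1.44, chromosome 9 by 1.53, chromosome 17 by 1.71 and chromosome 8 by 2.00. Chromosomes 1 and 10 to 19 together held 44.4% to 46.5% of the genes in 8 libraries and 50.1% in ALS 4. Long stretches had no gene at all in single libraries. Of the 46 genes that start beyond 150 Mb of chromosome 1, ALS 4 held 29, ALS 7 held 20 and the other 7 libraries held 0. Among stretches of 10 Mb with at least 5 genes, a library was empty in 17.4% of cases on chromosomes 1 and 10 to 19, in 2.26% of cases on chromosomes 2 to 9 and in 26.7% of cases on chromosome X, which holds few genes. In such stretches a 0 cannot be told apart from a value that was not recorded, and the number of libraries of a gene there may be too low. The part of this unevenness in the results was not tested. The counts of recurrent genes, the shares of pairs and the differences within libraries are also given on chromosomes 2 to 9 alone.

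**Figure D1:**
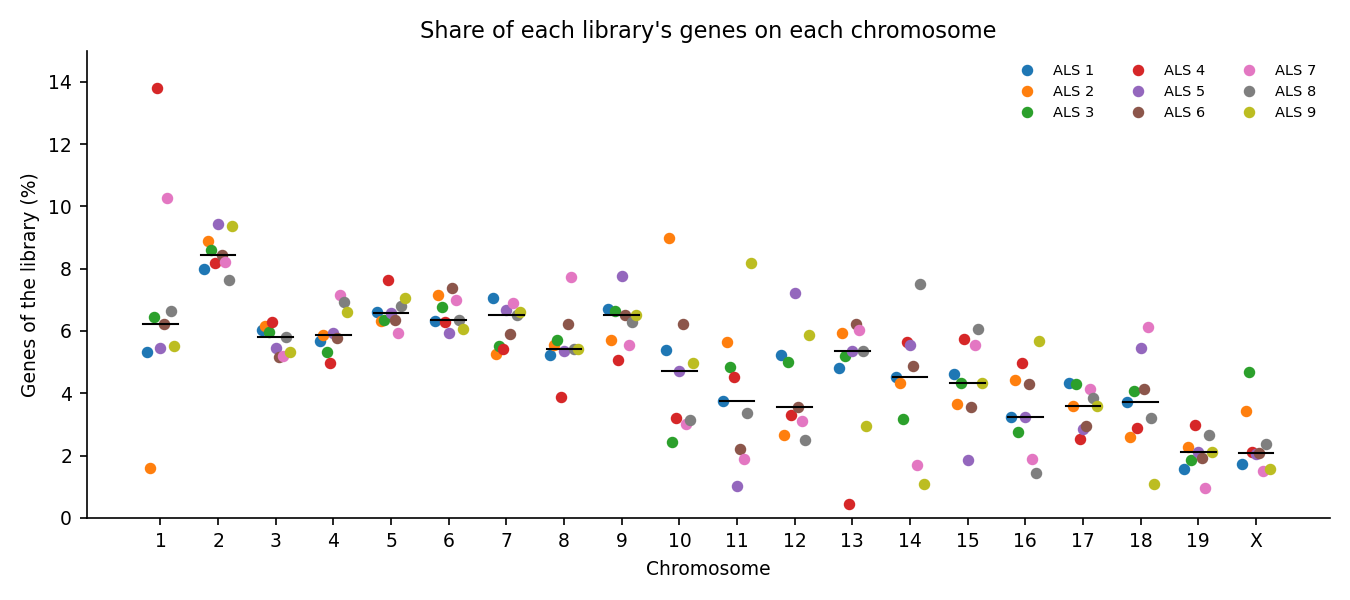
Share of each ALS library's placed genes (%, vertical axis) on each chromosome (horizontal axis). Each point is 1 library of 1 animal and black lines are medians over the 9 libraries. On chromosome 1 the shares run from 1.60% in ALS 2 to 13.8% in ALS 4, while on chromosome 3 all libraries lie between 5.18% and 6.30%.

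Most genes with eccDNA were seen in a single animal. Of the 7426 genes, 5124 (69.0%) were present in 1 library, 1318 in 2, 491 in 3, 232 in 4, 131 in 5, 61 in 6, 32 in 7, 29 in 8 and 8 in all 9 libraries. At least 2 libraries shared 2302 genes (31%), and 261 genes, or 3.51% of all genes present, were recurrent. Of the recurrent genes, 150 lay on chromosomes 2 to 9, 101 on chromosomes 1 and 10 to 19, 4 on X, and 6 could not be placed. The 4 recurrent genes on X, named after their values were seen, were the dystrophin gene *Dmd* and *Il1rapl2* in 6 libraries and the synaptic adhesion gene *Il1rapl1* and the predicted locus *Gm14643* in 5. On chromosomes 2 to 9 alone, 1122 of 3707 genes (30.3%) were present in at least 2 libraries and 150 (4.05%) in at least 5. Leaving out 1 library, with presence in at least 5 of the 8 left, can only lower the number of recurrent genes. It was 156 without ALS 3 and 170 without ALS 1, and between 177 and 214 without one of the other 7.

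The median gene length rose with every further library. The median length was 34.1 kb for genes in 1 library, 93.0 kb in 2, 189 kb in 3, 436 kb in 5, 865 kb in 7 and 1973 kb in 9. Within each library the genes also present in at least 4 of the other 8 libraries were longer than those found in none of the other 8, by 4.12 ± 0.17 on the log2 scale of gene length (SD, n = 9 libraries, exact sign-flip permutation p = 0.00391, adjusted p = 0.00586, two-sided). All 9 libraries had this direction, with differences between 3.91 and 4.5, and 0.00391 is the smallest p that 9 libraries allow. On chromosomes 2 to 9 alone the difference was 4.26 ± 0.13 (SD, n = 9, exact permutation p = 0.00391). The 9 differences are not fully independent, since the recurrent genes are largely shared between libraries by construction. Presence is not scaled for gene length, and any circle that overlaps a gene counts, so that a longer gene offers circles more sequence. The p-value does not separate this from any other relation of length and recurrence. The difference that randomly placed circles would give was not tested.

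**Figure D2:**
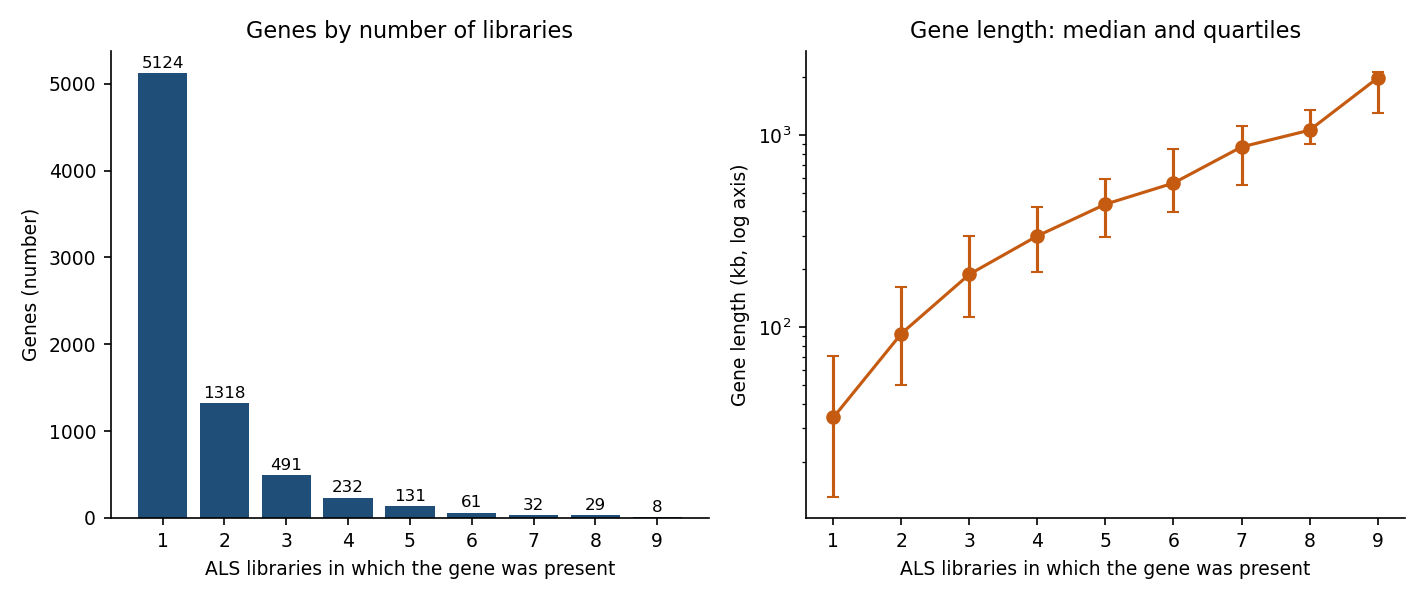
Left, number of genes (vertical axis) by the number of ALS libraries in which they were present (horizontal axis), from 5124 genes in 1 library to 8 genes in 9. Right, gene length in kb on a log axis against the same number of libraries, with points for medians and bars for the lower and upper quartile; the median climbs from 34.1 kb to 1973 kb.

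The length classes separate recurrent from non-recurrent genes nearly completely at the short end. Of the 1059 genes of up to 10 kb and the 2413 genes of 10 to 50 kb, 0 were recurrent, and of the 1485 genes of 50 to 100 kb, 4 were (0.269%). The share rose to 1.21% of the 1240 genes of 100 to 200 kb, to 12.2% of the 776 genes of 200 to 500 kb and to 61% of the 231 genes over 500 kb (141 genes). With at least 10 split reads asked for presence, the share over 500 kb was 21.1% of 213 genes. A gene over 500 kb was present in 5.09 ± 1.95 libraries (SD over 231 genes) and a gene of up to 10 kb in 1.03 ± 0.21 (SD over 1059 genes). Seen per library, the median share was 10.6% both for genes of up to 10 kb and for genes of 10 to 50 kb. It rose from each class to the next after that. Of the genes over 500 kb, between 35.1% (ALS 6) and 78.4% (ALS 3) were present in a library, with a median of 56.3%, and of those up to 10 kb between 4.72% and 18.4%, with a median of 10.6%, so that the libraries' ranges for these 2 classes did not overlap. The genes counted are those present in at least 1 of these 9 libraries, which fixes a lower limit for the mean share of a class, and the short genes lie close to it. ALS 6 had the lowest and ALS 3 the highest share in every class, as they had the fewest and the most genes. On chromosomes 2 to 9, 81 of 111 genes over 500 kb were recurrent (73.0%), against 56 of 107 (52.3%) on chromosomes 1 and 10 to 19 and 4 of 13 (30.8%) on X.

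**Figure D3:**
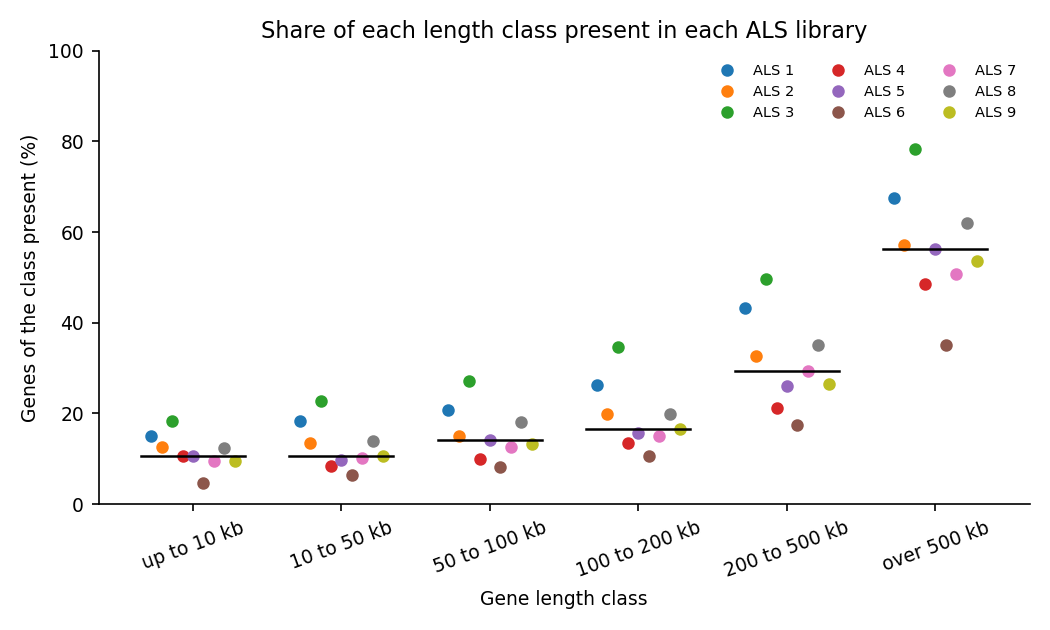
Genes present in a library as a percentage of all genes of their length class that were present in ALS (vertical axis), by length class (horizontal axis). Each point is 1 ALS library and black lines are medians, which stand at 10.6% for genes of up to 10 kb and at 56.3% for genes over 500 kb.

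Recurrent genes and genes in 1 library differed in type and composition, and these differences were smaller within the 2 classes of the longest genes. In GENCODE M21, 240 of the 255 recurrent genes that could be placed were protein coding (94.1%), against 71% of the genes in 1 library, among which were 572 lincRNA genes, 269 antisense genes and 157 processed pseudogenes. Within the class of 200 to 500 kb the shares were 93.7% and 88.4%, and over 500 kb they were 95.7% and 100%, the last over 8 genes. Of the lincRNA genes, 166 were in 2 to 4 libraries and 6 were recurrent, of which *Gm41335* was in 8 libraries. Its model spans 541 kb in GENCODE M21 and 3.79 kb in RefSeq. The median GC content was 40.3% for recurrent genes, 42.4% for genes in 2 to 4 libraries and 43.9% for genes in 1 library. Within the class of 200 to 500 kb the medians were 41.6%, 41.6% and 41.2%, and within the class over 500 kb they were 39.1%, 41.1% and 39.5%. Exons made up a median of 1.61% of a recurrent gene and of 11.8% of a gene in 1 library, but of 2.72% and 3.18% in the class of 200 to 500 kb and of 1.15% and 1.55% over 500 kb.

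The 8 genes present in every ALS library were *Dlg2*, *Sox5*, *Ltbp1*, *Cntnap2*, *Csmd1*, *Macrod2*, *Fgfr2* and *Galnt2l*. *Dlg2*, the gene of a scaffold protein of the postsynaptic density (chr7:90476672-92449247, + strand, mm10), had between 7 split reads in ALS 9 and 5119 in ALS 2, with a median of 65, which corresponds to levels of 4.07, 13.49 and 7.20 on the log2 PpGC scale. ALS 2 stood above the other 8 libraries, which had at most 422 split reads. *Cntnap2* (chr6:45059357-47304213, + strand), whose product clusters potassium channels beside the nodes of myelinated axons, had between 2 split reads in ALS 1 and 832 in ALS 5, with a median of 72. *Csmd1* (chr8:15892537-17535586, − strand), the gene of a membrane protein with complement control domains, had between 2 split reads in ALS 5 and 1065 in ALS 3, with a median of 20. *Macrod2* (chr2:140395309-142392966, + strand) encodes an enzyme that removes ADP-ribose from proteins. Its split reads ran from 2 in ALS 4 and ALS 7 to 7924 in ALS 8, with a median of 13, and the next highest library held 242.

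A matrix gene and a transcription factor gene were the shortest of the 7 that could be placed. *Ltbp1* (chr17:75005568-75392512, + strand), whose product binds latent TGF-beta in the extracellular matrix, is 387 kb long. It had between 3 and 70 split reads, with a median of 6 and levels from 5.15 to 9.65. *Sox5* (chr6:143828425-144781977, − strand), a transcription factor gene of neural and glial development, is 954 kb long and had between 2 split reads in ALS 5 and 549 in ALS 1, with a median of 16. For *Fgfr2*, a fibroblast growth factor receptor gene, the value rests on the gene model. In GENCODE M21 it spans 2961 kb (chr7:130162451-133123350, − strand) with 14 other genes of the table inside, whereas its RefSeq length is 104 kb. The split reads from 5 to 79 in its 9 libraries, with a median of 21, therefore count any circle that overlaps those other genes as well. *Galnt2l* has no coordinates in M21. Its levels ran from 2.58 to 11.04, with a median of 6.44, and taken back from the log scale they were whole numbers in 9 of 9 libraries, from 5 to 2098, as for a gene that the length scaling leaves unchanged. By its formula the scaling leaves only the longest gene unchanged, at 4435 kb. The model of *Galnt2l* could not be checked, and its presence in 9 libraries may also rest on a long model.

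The 29 genes in 8 libraries included genes of neuronal adhesion molecules. *Cntn5* (chr9:9660891-10904775) and *Cntn4*, which encode contactins, and *Cntnap5a* and *Cntnap5b*, relatives of *Cntnap2*, belonged to them. *Cntn5* was absent in ALS 7 and had between 8 split reads in ALS 6 and 4474 in ALS 8, with a median of 79. Of these 4 genes *Cntnap5b* had the narrowest range, with 4 to 76 split reads and a median of 46.5. *Ntm* and *Opcml*, neighbours on chromosome 9 that encode IgLON adhesion proteins, had 3 to 70 and 3 to 199 split reads. *Ntm* was missing in ALS 4 and *Opcml* in ALS 6. *Lrrc4c*, the gene of a synaptic ligand of netrin-G1, had 5 to 1848 split reads and was missing in ALS 9. *Ptprd* (chr4:75941238-78211961), a receptor phosphatase gene of the presynaptic side, had the highest median among genes in 8 libraries with recovered split reads, 137.5, with 4502 in ALS 2. Among the cadherin genes, *Cdh12* had 2 to 681, *Cdh13* 4 to 109 and *Cdh4* 2 to 108 split reads. *Lingo2* and *Adgrb3*, which encode a leucine-rich repeat protein and an adhesion G protein-coupled receptor, reached 198 and 394 split reads.

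Other genes in 8 libraries serve signalling, RNA and the cytoskeleton. *Magi2* (chr5:19227036-20704792), a synaptic scaffold gene, had 13063 split reads in ALS 9 and a median of 28, and *Nckap5* (chr1:125913620-126830799) had 7341 in ALS 6 and a median of 30.5. *Dpp10*, an auxiliary subunit gene of Kv4 potassium channels, had levels from 2.77 to 10.86, and its split reads could not be recovered as whole numbers. *Rbfox1*, a splicing regulator gene, had 2 to 1739 split reads, and *Rbms3*, which encodes an RNA-binding protein, had levels from 2.97 to 9.13. *Agbl1* and *Agbl4*, genes of carboxypeptidases that trim glutamates from tubulin, had 2 to 1434 and 4 to 2555 split reads. *Fhit* (chr14:9550092-11162035), a gene that spans a common fragile site in human cells, was missing in ALS 1 and had 4 to 427 split reads with a median of 62.5. *Lrp1b* (chr2:40595246-42653624), a gene of the LDL receptor family that spans another, was missing in ALS 2 and had 8 to 1143 with a median of 113. The remaining named genes were *Naaladl2*, *Malrd1*, *Thsd7b*, *Gm41335* and *Gm37240*, with medians between 3 and 57 split reads. ALS 6, the library with the fewest genes, lacked 7 of the 29 genes, and ALS 3, the one with the most, lacked 0.

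**Figure D4:**
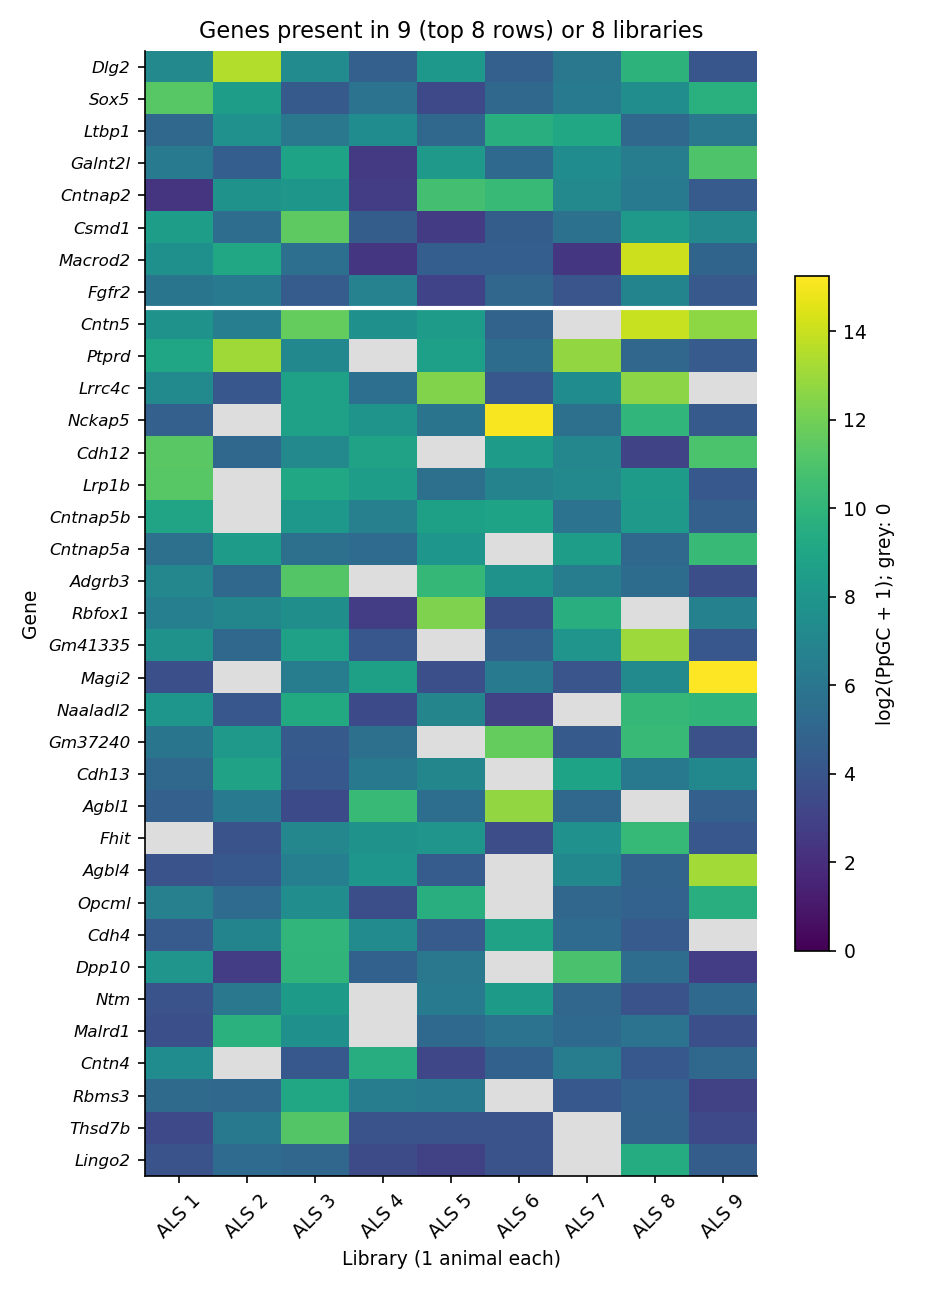
Levels on the log2(PpGC + 1) scale (colour, grey for 0) of genes present in 9 libraries (the top 8 rows, above the white line) or in 8 libraries (27 of 29 shown), with 1 row per gene and 1 column per ALS library. The brightest cells, such as *Magi2* in ALS 9 at 15.26 and *Nckap5* in ALS 6 at 15.12, lie in different libraries for different genes.

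The split reads of a recurrent gene came largely from 1 library. For the 248 recurrent genes with recovered split reads, the highest library gave a median of 67.1% of the gene's split reads over all 9 libraries, and it gave over 50% for 186 genes (75%) and over 90% for 48 genes. The highest and the lowest library in which a gene was present differed by a median factor of 75.5. Each library was the highest for some of these genes, from 20 genes in ALS 4 and ALS 6 to 58 in ALS 3. The gene with the most split reads differed between the 9 libraries, and the 90 places among the 10 highest genes of the libraries were taken by 88 different genes. The top genes were *Sema3a*, *Dlg2*, *Mcm4*, *A2ml1*, *Gm25040*, *Ppp1r9a*, *Epha5*, *Tmprss11f* and *Kank1* in ALS 1 to ALS 9. In ALS 5, *Rbfox3* (4 libraries) shared the first place with *Gm25040* (1 library) at 33947 split reads. *Dlg2*, *Ppp1r9a* and *Epha5* were recurrent, and *Mcm4* and *A2ml1* were present in 1 library. The top gene alone held between 2.72% (ALS 3) and 14.6% (ALS 6) of a library's split reads, and the 10 highest between 19.1% and 76.1%. These shares and places count a circle once for each gene that it overlaps. *Cts3* and *Gm49352*, which overlap each other, were both among the 10 highest of ALS 6 with 14905 split reads each.

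Genes present in 1 library can have very many split reads. The 5 with the most were *Gm25040* (33947 in ALS 5), *Gm49651* (15853 in ALS 8), *Cts3* and *Gm49352* (14905 each in ALS 6) and *Hbp1* (14432 in ALS 5). One circle can count for several genes. *Cts3* and *Gm49352* overlap each other on chromosome 13 (chr13:61564630-61570127 and chr13:61538390-61568174), and *Gm25040*, a miRNA gene of 66 bases (0.066 kb), had the same 33947 split reads in ALS 5 as *Rbfox3*, which was present in 4 libraries. Of the genes that could be placed, 1661 (23.1%) overlapped another gene present in ALS, and 542 of the 1297 overlapping pairs had the same split reads in all 9 libraries. Among genes that overlap no other, 164 of 5543 (2.96%) were recurrent.

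Level and recurrence were related in opposite directions with and without the length scaling. In each of the 9 libraries, genes also present in at least 4 of the other 8 had a lower median level than genes present in none of the other 8. The medians averaged 6.44 and 10.13 log2 PpGC, a difference of -3.69 ± 0.57 (SD, n = 9 libraries, exact sign-flip permutation p = 0.00391, adjusted p = 0.00586). The level is the split reads scaled by length, so that this difference largely restates that of gene length and is not a separate result. The median split reads were higher in the recurrent genes of 8 libraries and lower in ALS 4, by a mean of 0.79 ± 0.54 on the log2 scale (SD, n = 9, exact sign-flip permutation p = 0.00781, adjusted p = 0.00781). On chromosomes 2 to 9 alone the differences were -3.78 ± 0.35 for the level and 0.77 ± 0.38 for the split reads (SD, n = 9, exact permutation p = 0.00391 for each), and there all 9 libraries had the same direction in both. With presence set to a level of at least 9, which leaves 5 libraries, the level difference was 0.51 (exact permutation p = 0.438) and had the opposite sign. Presence then depends on the level compared, and 2 genes make up the recurrent side, so that this value does not test the relation. Over all libraries, the median rose from 6 split reads for genes in 1 library to 8 in 5 libraries and 20 in 9, while the median level fell from 10.16 to 6.17.

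**Figure D5:**
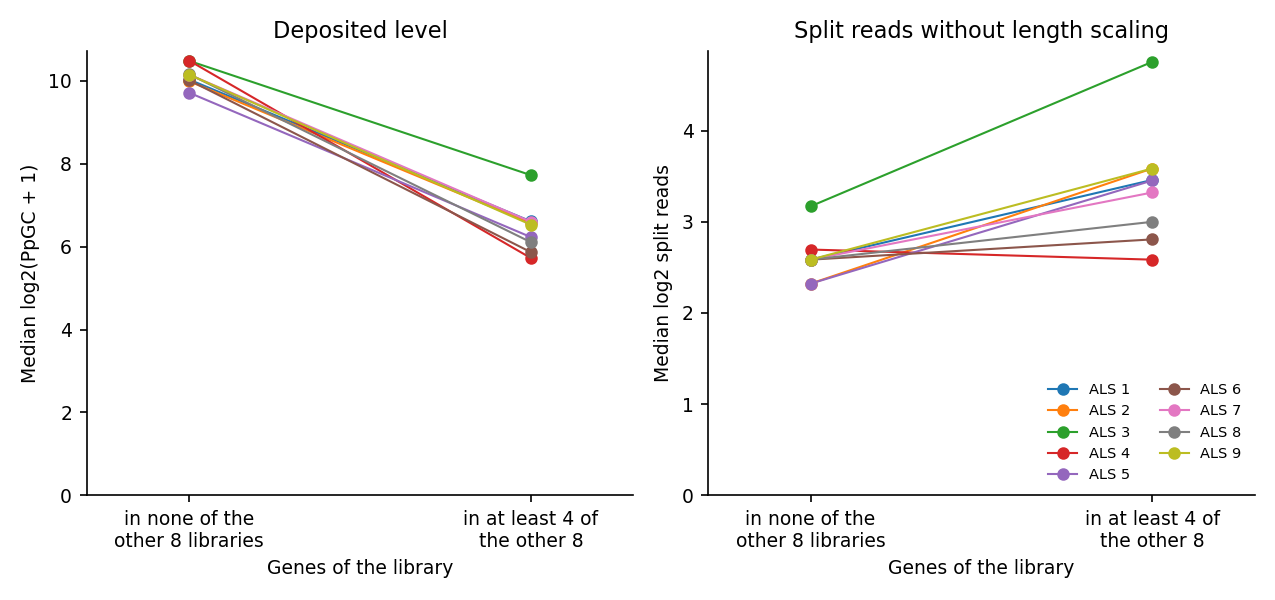
Medians of each ALS library (1 line per library) for its genes in none of the other 8 libraries and for its genes in at least 4 of the other 8. Left, the deposited level, log2(PpGC + 1), which was lower for the latter genes in 9 of 9 libraries; right, the log2 of the split reads without length scaling, which was higher in 8 of 9, the exception being ALS 4.

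Among genes of similar length, the medians of split reads differed by class. In the class of 200 to 500 kb, their median was the lower one in 8 of 9 libraries, with 4 to 16.5 split reads and a median over libraries of 6, against 5 to 59 and a median of 12 for genes found in none of the other 8 libraries. These counts rest on 42 to 78 recurrent genes but on only 1 to 34 of the others per library. In the class of 100 to 200 kb, recurrent genes, 6 to 12 per library, were lower in 7 of 9 libraries. In the class of 50 to 100 kb, recurrent genes, 1 to 4 per library, were lower in 4 and higher in 3 of 8 libraries. Over 500 kb, where 5 libraries had 1 to 3 genes of their own, recurrent genes were lower in 3 of these libraries. No test was made within the classes. Recurrent genes made up between 10.4% (ALS 3) and 17.9% (ALS 6) of a library's genes and held between 11.6% (ALS 4) and 40.1% (ALS 6) of its split reads, with a median of 19.4%. Genes found in that library alone made up between 37.8% (ALS 6) and 47.0% (ALS 3) of its genes.

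Pairs of libraries shared few genes. Over the 36 pairs, between 107 (ALS 6 and ALS 9) and 473 (ALS 1 and ALS 3) genes were shared, with a median of 212.5, which is 6.31% to 13.5% of the genes present in either library, with a median of 9.03%. As a share of 1 library, the overlap ran from 9.64% to 32.1%, with a median of 16.8%, and it was high where a small library was set against a large one. Of the genes of ALS 6, 32.1% were also in ALS 3. By length class, the median pair shared 0.431% of the genes up to 10 kb, 4.37% of those of 50 to 100 kb, 17.7% of those of 200 to 500 kb and 43.6% of those over 500 kb. On chromosomes 2 to 9 the median was 9.69%. For the genes that a pair shared, the split reads of the 2 libraries were nearly unrelated, with correlations of the log2 split reads across genes from -0.14 (ALS 4 and ALS 5) to 0.15 (ALS 2 and ALS 7) and a median of 0.04. These are correlations across genes within 2 libraries, and genes are not independent replicates.

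Over all lengths, genes that span human common fragile sites, with a median length of 1448 kb, had the highest recurrent share of the lists. Among genes over 500 kb the cadherin list (88.9% of 9 genes), the small cyclic nucleotide and matrix lists (3 of 3 and 2 of 2) and the known ALS and Zfp lists (1 of 1 each) had higher shares. Of 15 such genes, 15 were present in ALS, 13 were recurrent (86.7%) and the median member was in 7 libraries, against 3.51% recurrent and a median of 1 library over all genes present. All 15 are longer than 500 kb, a class in which 61% of genes were recurrent. The 15 genes were in 6.73 libraries on average, against 5.09 for that class. Among the 57 longest genes that could be placed, some of them on this list, 49 were recurrent. The high share of this list was therefore not set apart from that of very long genes. Of the 48 synaptic and axonal adhesion genes present, 23 were recurrent, against 18.6 at the shares of their length classes, with a median of 4 libraries. Their mean was 4.48 libraries, against 3.93 for all genes present of the same length classes. Of the 28 among them over 500 kb, 22 were (78.6%), with *Cntnap2*, *Cntn5*, *Ptprd* and *Lrrc4c* at the top. Of the 27 genes of cadherins, protocadherins and catenins, 10 were recurrent, led by *Cdh12*, *Cdh13*, *Cdh4* and *Ctnna3* (7 libraries), and so were 8 of the 9 over 500 kb. Their mean was 3.93 libraries, against 2.98 for the same length classes, whose shares would give 6.30 recurrent genes. These lists overlap, and the differences from the length classes were not tested.

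Lists of neuronal signalling genes also had larger recurrent shares than the 3.51% of all genes, a difference that was not tested. At the shares of their length classes, 5.99 receptor, 7.51 channel, 3.17 cyclic nucleotide, 5.86 guidance and 7.49 transcription factor genes would be recurrent, against the 8, 14, 8, 7 and 10 given here. Of 39 neurotransmitter receptor genes, 8 were recurrent (20.5%). The metabotropic glutamate receptor gene *Grm8* was in 7 libraries with 2 to 115 split reads and *Grm7* in 6 with 2 to 238. Of 67 voltage-gated and calcium-release channel genes, 14 were recurrent (20.9%), led by the potassium channel genes *Kcnq5* and *Kcnma1* in 7 libraries and by *Cacnb2* and *Kcnip4* in 6. *Kcnq5* had 5 to 4118 split reads with a median of 31. Of 27 genes of cyclic nucleotide signalling, 8 were recurrent (29.6%). *Prkg1*, the gene of a cGMP-dependent kinase, was in 7 libraries with 2 to 15105 split reads, the adenylate cyclase gene *Adcy2* and the phosphodiesterase gene *Pde4b* were in 6, and *Pde1a* was in 5 with up to 15658 in ALS 9. Of 36 axon guidance genes, 7 were recurrent (19.4%), with *Sema3d*, *Dcc*, *Epha6* and *Robo1* in 6 libraries. Of 25 neural transcription factor genes, 10 were recurrent (40%), with *Sox5* in 9 and *Foxp2*, *Zbtb20* and *Auts2* in 7 libraries. The means of these lists were 2.74 (receptors), 2.43 (channels), 2.85 (cyclic nucleotides), 2.69 (guidance) and 4.12 libraries (transcription factors), against 2.57, 2.26, 2.42, 2.62 and 3.54 for the same length classes.

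The other lists had recurrent shares closer to, or below, the 3.51% of all genes. Of 54 extracellular matrix genes, 3 were recurrent (5.56%), which were *Adamtsl1* in 7 libraries and *Lama2* and *Col25a1* in 5. Of 114 solute carrier genes, 4 were (3.51%): *Slc35f4* and the cystine transporter gene *Slc7a11*, whose model is longer in M21 than in RefSeq and holds 1 other gene, in 7 libraries, and *Slc4a4* and *Slc35f1* in 5. Genes of the same length classes would give 3.60 recurrent matrix genes and 3.21 recurrent solute carrier genes at the shares of those classes. Of 77 zinc finger genes of the Zfp series, *Zfp407* (7 libraries) and *Zfp804b* (5) were recurrent. Of 29 DNA repair genes, 0 were recurrent, and *Fancl* and *Fancc* came closest with 4 libraries each. The shares of their length classes would give 1.63 for the Zfp genes and 1.04 for the repair genes. Of 1917 predicted Gm and Rik loci, 15 were recurrent (0.782%), headed by *Gm41335* and *Gm37240*, against 20.9 at the shares of their length classes. The model of *Gm37240* spans 1391 kb with 4 other genes of the table inside, so that its value also counts any circle that overlaps those genes. Receptor genes of smell and taste recurred in 0 of 142 cases, immune receptor segments in 0 of 18, microRNA and small RNA genes in 0 of 11 and ribosomal protein genes in 0 of 2. The median length of the present members of these last 4 lists lay between 0.083 and 8.2 kb.

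Of the 29 known ALS genes looked up, 9 were among the 8336 genes of the deposited table. All 9 were present, against 7426 of the 8336 genes. The others have no row under these names, so that nothing can be said about them. Of these 9, 1 was recurrent (11.1%), against 0.64 at the shares of their length classes. *Erbb4* (7 libraries, 1076 kb), a neuregulin receptor gene, had between 3 and 3738 split reads with a median of 21. *Fig4*, *Atxn2* and *Unc13a* were in 2 libraries each. The mouse *Sod1* gene (chr16:90220754-90226329, + strand) was present in ALS 9 alone with 3 split reads. Genes that mark cell types of the cord were looked up by name. Of the 14 motor neuron markers 3 had a row, and all 3 were seen, each in 1 library (*Lhx3*, *Nefm* and *Ret*). Of the 6 astrocyte markers 2 had a row, and *Aldh1l1* alone was seen, in 2 libraries. Of the 7 oligodendrocyte markers 5 had a row, and 4 were seen, each in 1 library. Of the 7 microglia markers 3 had a row, and all 3 were seen. *Cx3cr1* was in 5 libraries with 2 to 8 split reads over a gene model of 168 kb that holds 3 other genes of the table. Of all genes present, 69.0% were in 1 library and 3.51% were recurrent. The means of the markers seen were 1 (motor neuron), 2 (astrocyte), 1 (oligodendrocyte) and 2.67 libraries (microglia). The same length classes gave 1.10, 1.72, 1.28 and 1.33, and 0.012 recurrent microglia markers at their shares. These differences were not tested.

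Length and recurrence parted in some genes. The shortest recurrent genes were *Lmbrd1* (87.7 kb), *Has2os* (88.5 kb), *Rasa2* (92.3 kb), *Afap1l2* (95.9 kb) and *Cd109* (101 kb), each in 5 libraries. *Has2os*, an antisense transcript of the hyaluronan synthase gene *Has2* that spans 4.52 kb in RefSeq, had 2 to 5 split reads where present, and *Cd109*, the gene of a GPI-anchored surface protein, had 3 to 459. At the other end, *Gpc6*, a glypican gene of 1051 kb, was present in ALS 8 alone with 24 split reads. *Sugct* (838 kb), *Cacna2d3* (817 kb), a calcium channel subunit gene, and *Mgat4c* (710 kb) were in 2 libraries. These 4 genes lie on chromosomes 10, 13 and 14, all among those that the libraries covered unevenly. A relation of their low recurrence to this coverage was not tested. Of 111 genes over 500 kb on chromosomes 2 to 9, 0 were in 1 library. On chromosomes 1 and 10 to 19, 6 of 107 such genes were in 1 library, and on X 2 of 13.

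A minimum amount for presence can only lower the number of recurrent genes. With at least 10 split reads, 49 genes were present in at least 5 libraries. With a level of at least 9 log2 PpGC 2 genes were, *Sema3d* and *Slc35f4*, which are named after their values were seen. *Sema3d*, a semaphorin gene of axon guidance, is 206 kb and *Slc35f4* 228 kb long, *Sema3d* with a median of 154 and *Slc35f4* with a median of 101 split reads where present. With the 667 genes of most split reads taken from every library, 78 genes were present in at least 5 libraries and the median pair shared 6.59%.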

How the data were processed

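The 9 ALS libraries hold eccDNA of the cervical cord. The authors mapped reads to mm10 with Circle_Finder, merged circles less than 10 bp apart, removed those with fewer than 2 split reads, intersected them with GENCODE genes with bedtools and deposited log2(PpGC + 1) per gene and sample. The length scaling uses the same factor for a gene in all samples, and the deposited log2 values carry no scaling for depth between samples. RCA copies and the unknown depth of the single libraries (the methods give an average alone) limit the precision of each value. The 10 control columns were not used, and the table had 0 columns of other samples.

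From there, genes were matched by name to GENCODE M21 on mm10 (7204 of 7426). The GENCODE release is not given in the sources used here. Length scaling was undone with the longest gene (4435 kb), and 98.9% of the values above 0 in placed genes then came out as whole split reads, within a tolerance of 0.02. GC content was read from the GRCm38 RefSeq genome. Differences within libraries were tested with exact sign-flip permutation over 512 sign patterns, and 3 such tests were adjusted together. The labels name 1 sample per animal, and p-values rest on 1 value per animal. In the sign-flip tests these values compare largely the same recurrent genes, so that they are not fully independent between animals. The members and lists were chosen with earlier results of these data known. The genes named were those in 9 and 8 libraries, up to 4 per list by number of libraries and mean level, the 5 with most split reads in 1 library, the 5 shortest recurrent, the 5 longest in at most 2 libraries, and *Sod1*. The gene with the most split reads in each library, *Rbfox3*, the recurrent genes on X and the genes at a level of at least 9 were chosen after their values were seen. Some genes that this rule names are not reported here. Alternatives were other chromosomes, minimums, thresholds and equal gene numbers, genes without overlap and leaving out each library. Chromosomes 2 to 9 alone, and the alternatives for the share of recurrent genes over 500 kb, were chosen after seeing the data. The scripts were tested on simulated data. Positions of circles within genes were not analysed here. Analyses ran in Python 3.11.15 with pandas 2.3.3, SciPy 1.17.1, NumPy 2.4.6 and, for plots, matplotlib 3.10.9.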

Additional observations from a re-analysis of the deposited data

Results flagged for a closer look

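Of 24 measures compared over the 9 libraries, 4 had 1 library set apart from the others by Dixon's test, which flags about 1 in 20 groups by chance. ALS 3, the library with the most genes, had the highest median level, 9.40 log2 PpGC, against 8.48 to 8.81 in the other 8, and the highest median of split reads per gene, 10 against 6 to 7. ALS 4 had the highest share of genes on chromosomes 1 and 10 to 19, 50.1% against 44.4% to 46.5%, and with it the lowest share on chromosomes 2 to 9, 47.7% against 50.9% to 53.7%.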

How the results depend on the processing

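The level, split read and gene length differences kept their direction and their side of the threshold under each alternative setting but one. Within length classes, where no test was made, the split reads of recurrent genes were lower in 8 of 9 libraries at 200 to 500 kb and in 7 of 9 at 100 to 200 kb, the opposite of the difference over all lengths. With a level of at least 9 log2 PpGC, in the 5 libraries that held such genes, the level difference was 0.51 (exact permutation p = 0.438), where presence depends on the level itself and 2 genes are recurrent, so that it does not test the relation, and the split read and length differences were 3.25 and 2.80 (exact permutation p = 0.0625 for each, the smallest that 5 libraries allow). Genes in at least 2 libraries numbered 1179 on chromosomes 2 to 9 and X, 1122 on chromosomes 2 to 9, 573 with a level of at least 9, 768 with at least 10 split reads and 1021 with equal gene numbers. Recurrent genes numbered 154, 150, 2, 49 and 78 in the same order, 164 without overlapping genes, 493 at 4 and 130 at 6 libraries, and 156 to 214 without one library. The median pair shared 1.51% with a level of at least 9, 4.92% with at least 10 split reads and 6.59% with equal gene numbers. The share of recurrent genes over 500 kb was 21.1% with at least 10 split reads, 73.0% on chromosomes 2 to 9 and 43.9% to 54.5% without one library.

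In the lists, at least 4 libraries gave 8 extracellular matrix, 7 solute carrier, 2 DNA repair and 43 Gm and Rik genes. At least 6 libraries gave 3 receptor, 7 channel, 3 cyclic nucleotide, 1 matrix, 2 solute carrier, 1 Zfp and 4 Gm and Rik genes. Chromosomes 2 to 9 and X gave 4 cadherin, 9 channel, 4 cyclic nucleotide, 6 transcription factor, 4 guidance, 2 solute carrier, 0 ALS, 1 Zfp and 9 Gm and Rik genes. Over 500 kb, recurrent were 5 of 8 channel, 3 of 3 cyclic nucleotide, 4 of 7 guidance, 1 of 2 solute carrier, 1 of 1 Zfp and 7 of 12 Gm and Rik genes, against 61% of all genes of that length. Counts that fall with fewer genes tested do so by construction. The cause of the other changes was not tested. No paired analysis was possible because the ALS libraries were compared with no other group. The differences above are taken within each library. The unknown depth of the single libraries limits every count of libraries, since a circle can be missed.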
